A study of Mus musculus with 2 samples.

Results

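The cytochrome P450 genes of the mouse were followed in liver DNA of wild-type (WT) mice and of mice carrying the Uhrf1 YP187/188AA knock-in (KI). Members were the mm9 GENCODE protein-coding genes whose symbol is Cyp followed by a family number, a subfamily letter and a gene number, and they were grouped by family number. The rule gave 96 genes of 22,380 protein-coding genes. A gene was taken from 2 kb upstream of its 5′ end to its end, and a shared CpG is a cytosine of a CpG with at least 5 reads in both libraries. Of the 2,654,195 shared CpGs, 3,193 lay in Cyp genes, and no CpG lay in 2 of them. At least 1 shared CpG was found in 78 Cyp genes and at least 5 in 69, while 9 had 1 to 4 and 18 had none. The symbols of Cyp2d37-ps and Cyp2j7-ps are those of pseudogenes, but the annotation lists both as protein-coding and they were kept. The genes Cyp51 and Cyp2ab1 do not have a symbol of this form and were not members.

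The data are reduced representation bisulfite sequencing (RRBS) of liver from C57BL/6 males aged 3 months. DNA of 3 mice was pooled for each genotype, so that there is 1 library of WT and 1 library of KI. The KI mice are homozygous for a change of a neighbouring tyrosine and proline of Uhrf1 to alanines, and every cell of the animal carries it. The KI sample is labelled as a knock out in its genotype field but as KI in its title, and it was taken as KI. Bisulfite reads of these CpGs cannot show the mutation itself.

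Cytochrome P450 enzymes are haem proteins that insert oxygen into small lipophilic molecules. The liver holds large amounts of those of families 1 to 3, which oxidise drugs and other foreign compounds, and of family 4, which hydroxylate fatty acids, while other families each carry out defined steps in making or breaking down bile acids, steroid hormones, retinoic acid and vitamin D. Families 2, 3 and 4 have expanded in rodents into clusters of neighbouring, closely related genes. UHRF1 binds hemimethylated CpGs behind the replication fork and brings in DNMT1, which copies the methylation to the new strand, and the KI mutation removes the binding of its tandem Tudor domain to methylated histone H3 lysine 9.

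The sequences below hold the called promoter stretches and a choice of the called cytosines. They are mm9 sequence on the strand of the gene, 5′ to 3′, and capitals mark the CpGs whose cytosines were shared by both libraries. The first 4 lie in the 4 promoters that were lower in KI, at chr7:121706549-121706737 (minus strand), chr10:126485419-126485460 (plus strand), chr7:27723791-27723877 (minus strand) and chr17:32796523-32796716 (plus strand). The next 5 hold cytosines that were lower in KI, in introns of Cyp2c66 at chr19:39220248-39220325 and chr19:39220892-39220972 (plus strand), of Cyp2d26 at chr15:82623444-82623485 (minus strand) and of Cyp2j8 at chr4:96130311-96130352 (minus strand), and in an exon of Cyp2b23 at chr7:27466707-27466748 (minus strand). The last 2 lie upstream of Cyp26a1 at chr19:37770538-37770579 and in an intron of Cyp26c1 at chr19:37762425-37762466 (both plus strand), and the latter holds the 1 cytosine that was higher in KI.
Cyp2r1: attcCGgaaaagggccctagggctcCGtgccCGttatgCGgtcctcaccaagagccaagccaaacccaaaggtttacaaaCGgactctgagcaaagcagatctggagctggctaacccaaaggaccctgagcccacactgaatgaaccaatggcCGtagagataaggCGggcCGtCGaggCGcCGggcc
Cyp27b1: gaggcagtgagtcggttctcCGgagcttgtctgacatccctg
Cyp2a22: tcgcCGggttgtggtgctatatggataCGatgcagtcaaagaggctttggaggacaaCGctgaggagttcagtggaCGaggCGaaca
Cyp4f40: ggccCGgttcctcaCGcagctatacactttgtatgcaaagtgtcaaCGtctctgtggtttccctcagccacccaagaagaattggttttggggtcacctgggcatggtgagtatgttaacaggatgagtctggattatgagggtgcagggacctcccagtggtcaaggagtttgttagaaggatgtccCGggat
Cyp2c66, first stretch: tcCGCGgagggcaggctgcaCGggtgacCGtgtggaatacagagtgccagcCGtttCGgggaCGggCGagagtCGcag
Cyp2c66, second stretch: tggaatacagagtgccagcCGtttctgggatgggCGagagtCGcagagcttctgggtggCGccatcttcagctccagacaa
Cyp2d26: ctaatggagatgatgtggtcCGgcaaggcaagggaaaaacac
Cyp2j8: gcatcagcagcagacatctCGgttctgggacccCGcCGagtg
Cyp2b23: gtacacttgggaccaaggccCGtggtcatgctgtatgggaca
Cyp26a1: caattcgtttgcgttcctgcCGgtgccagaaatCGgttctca
Cyp26c1: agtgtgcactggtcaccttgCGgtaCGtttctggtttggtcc

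Median coverage of the Cyp CpGs was 35 reads in WT and 37 in KI, against 37 in each library over all shared CpGs. WT had 207,732 reads at them and KI 186,115, and in family 3 the medians were 121 and 81. Pooling into 1 library per genotype leaves no spread between mice to compare with, so every test below compares these 2 libraries, and errors and intervals cover counting only. One read can cover several CpGs, so the p-values of genes and promoters are too small. How PCR copies were treated is not given, and copies left in would make all p-values too small. In bulk liver DNA, a shift in the cells of the sample and a change of methylation within cells cannot be told apart. RRBS cuts at CCGG, and the end repair fills in unmethylated cytosines there. At the 423 Cyp CpG pairs in CCGG sites with both strands shared, the more methylated strand had a mean WT level of 67.5% and its opposite strand one of 4.05%, whereas at 891 pairs elsewhere these means were 53.2% and 47.1%. Levels that include the 1,003 Cyp CpGs in CCGG sites are therefore lowered in both libraries, and key levels are also given without them.

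Methylation of the Cyp genes was lower in the KI library. From 44.3% in WT, the mean over the 3,193 CpGs went to 40.8% in KI. The change was -3.44 percentage points with a 95% counting interval of -3.72 to -3.16, or -7.77% of the WT level. Without CCGG sites the means were 48.0% and 44.2%. A lower level in KI was seen at 51.4% of the Cyp CpGs, a higher one at 24.8% and the same at 23.8%. The 1,658,091 shared CpGs of all protein-coding genes went from 36.6% to 35.0%, a change of -1.69 points or -4.62% of the WT level, and 36.8% of them had a lower level against 23.8% with a higher one. All shared CpGs, in genes or not, started nearer to the Cyp level and went from 45.6% to 42.6%, a change of -2.99 points or -6.55% of the WT level. The Cyp CpGs over 70% in WT made up 40.9% of the total, and those over 70% in KI 35.8%.

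Gene by gene, the direction was largely shared. Of the 69 Cyp genes with at least 5 shared CpGs, the mean level was lower in KI in 61 and higher in 8. Over all 17,622 protein-coding genes tested, the mean level was lower in 13,575 and higher in 3,868. Genes were tested by the Cochran-Mantel-Haenszel test, which compares methylated and unmethylated reads of the libraries CpG by CpG, with adjustment over all protein-coding genes, and a gene was called where this p was under 0.05 and the mean changed by at least 5 points in the same direction. By this rule 24 of the 69 Cyp genes were lower in KI, that is 34.8%, and 0 were higher. Of all 17,622 protein-coding genes tested, 11.2% were lower and 0.227% were higher. The median change of a Cyp gene was -3.03 points from a median WT level of 56.6%, and that of all genes was -0.91 points from 34.1%. Adjusted p-values of the called Cyp genes ran from 1.24e-78 for Cyp2c66 to 0.0389 for Cyp2c54. With at least 10 reads per CpG, 15 of 62 tested Cyp genes were called lower, against 11.3% of all genes. With reads summed over the gene, 17 of the 24 were still called, and Cyp2c54, Cyp2c65, Cyp2d34, Cyp3a11, Cyp3a25, Cyp4a12b and Cyp4f17 were not. When each gene was given only the reads of 1 average CpG, 0 of the 69 and 1 of all 17,622 genes were. In 29 of the 69 Cyp genes the change was within 2 counting errors of 0.

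**Figure D1:**
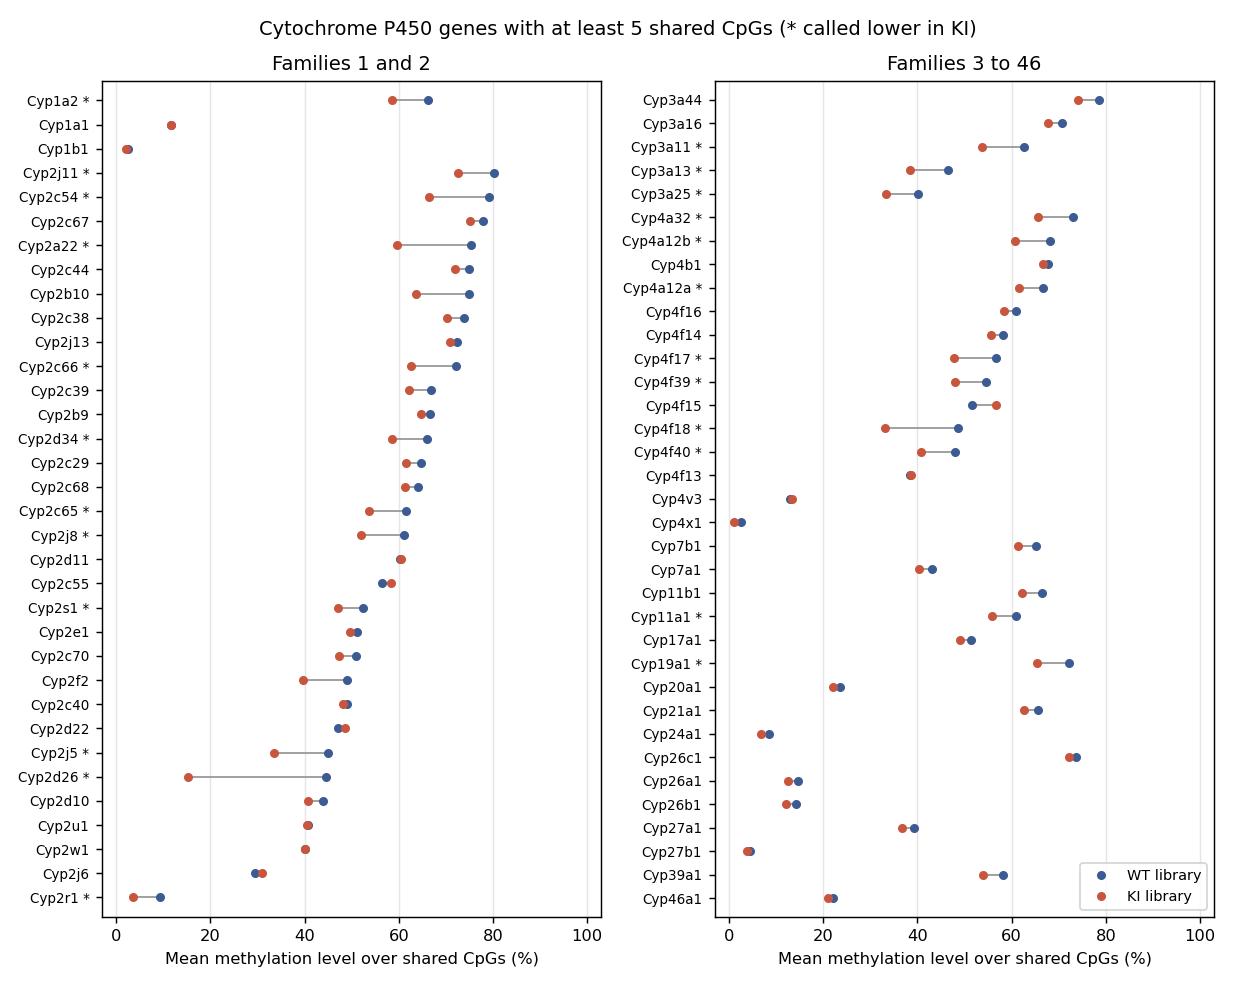
Mean methylation level (%) of the 69 Cyp genes with at least 5 shared CpGs in the WT library (blue) and the KI library (red), 1 library each, sorted by family number and WT level, with a star at the 24 genes called lower in KI. The KI point lies to the left of the WT point in 61 genes, and the widest gap is at Cyp2d26, with 44.7% in WT and 15.2% in KI.

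Cyp genes were also set beside other genes of like level, in classes by the mean of the WT and KI levels that were chosen with the data known. Between 40% and 60%, 10 of 25 Cyp genes were called lower with a median change of -3.51 points, against 21.2% of 4,255 genes and -2.23 points. Between 60% and 100%, 10 of 27 were called lower with a median of -4.17 points, against 24.9% of 3,239 genes and -2.93 points. Between 20% and 40% the values were 3 of 8 and -2.01 points, against 5.30% of 3,981 genes and -1.01 points. Under 20%, 1 of 9 Cyp genes was called, Cyp2r1, with a median of -1.44 points for the class against -0.15 points over 6,147 genes. The Cyp median was thus the lower one in each of the 4 classes, without a test of the difference. A lower level in KI was found in 22 of the 25 Cyp genes between 40% and 60%, against 3,691 of 4,255 genes. Between 60% and 100% it was found in 26 of 27, against 2,827 of 3,239. Between 20% and 40% it was 6 of 8 against 3,210 of 3,981, and under 20% 7 of 9 against 3,847 of 6,147.

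**Figure D2:**
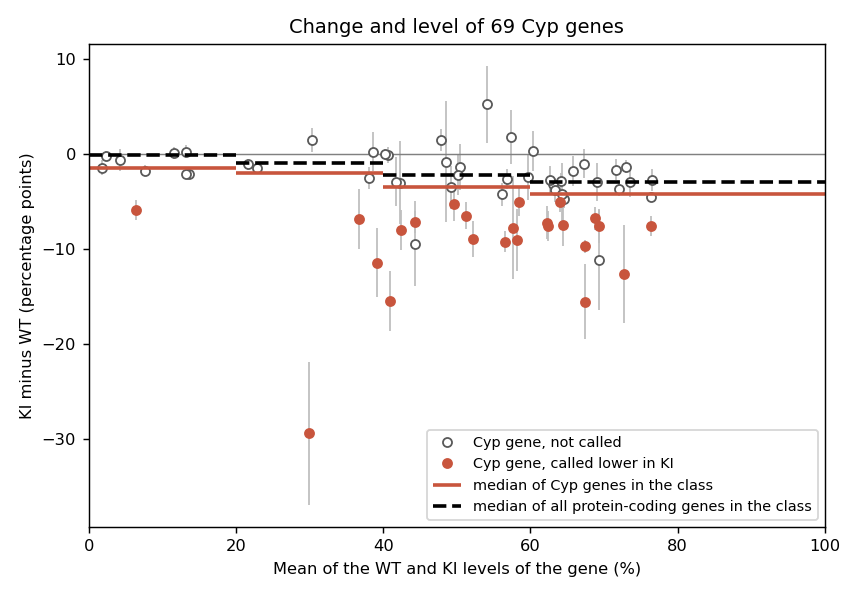
Change of each Cyp gene (KI minus WT, percentage points, bars of 1 counting error) against the mean of its WT and KI levels (%), with filled points for the 24 genes called lower in KI. Lines give the median of the Cyp genes (solid) and of all protein-coding genes (dashed) in 4 classes of level, and the solid line lies below the dashed one in each class.

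Among the drug-metabolising families 1 to 3, 14 of the 38 genes with at least 5 shared CpGs were lower in KI, against 11.2% of all genes. The 1,292 CpGs of these families averaged 57.3% in WT and 52.8% in KI. Family 1 holds the enzymes induced through the aryl hydrocarbon receptor. Its genes Cyp1a1 and Cyp1a2 stand head to head on chromosome 9 with 14.0 kb between them, and their levels were far apart. Cyp1a2 (chr9:57524744-57531462, minus strand), a caffeine-oxidising enzyme made mainly in liver, was at 66.2% in WT and fell by 7.57 points in KI with a counting error of 1.60, with 26 of 35 CpGs lower and 9 higher. Cyp1a1 (chr9:57545420-57551629, plus strand) was at 11.6% in WT and 11.7% in KI over 72 CpGs, and Cyp1b1, which acts mostly outside the liver, at 2.43% and 2.20% over 90 CpGs. Neither was called.

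Family 2 was the largest. Of its 31 tested genes 11 were lower, against 11.2% of all genes, and its 998 CpGs were at 62.6% in WT and 57.4% in KI. The Cyp2c subfamily on chromosome 19, whose enzymes epoxidise arachidonic acid and oxidise many drugs, gave 528 of these CpGs, 24 of them in Cyp2c44, which lies apart from the cluster of the others. They averaged 69.7% in WT and 64.0% in KI, and 3 of 12 tested Cyp2c genes passed, namely Cyp2c54, Cyp2c65 and Cyp2c66. Cyp2c54 was at 79.1% in WT and 66.4% in KI over 6 CpGs, and its call ended when the deeper library was thinned to equal coverage or when reads were summed over the gene. Cyp2c65 was at 61.5% in WT and 53.7% in KI, also over 6 CpGs. The liver gene Cyp2c29, with 10,176 reads over its CpGs in WT and 10,381 in KI among the deepest of the members, was at 64.7% and 61.5% over 87 CpGs. It passed the adjusted p of the gene test but not the minimum of 5 points, as did Cyp2c38, at 73.9% and 70.2%, and Cyp2c39, at 66.9% and 62.1%. Cyp2c39 was called lower with at least 10 reads per CpG, at -5.83 points.

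Cyp2c66 (chr19:39188388-39261562, plus strand), the member with the most CpGs called singly, was at 72.3% in WT and fell by 9.73 points in KI with a counting error of 0.671. Its level was 62.5% in KI. Of its 179 CpGs, 139 were lower, 28 were higher and 8 were called lower. Without CCGG sites the level was 86.3% in WT and 73.9% in KI. Its CpGs lay in several groups along the gene, and 5 of the 8 calls were 31 to 33 kb from the 5′ end. There, 59 CpGs outside CCGG sites averaged 83.5% in WT and 67.9% in KI, with 51 lower and 8 higher. The group at 42 to 44 kb, with 36 such CpGs and 2 calls, averaged 88.1% and 79.6%, and the group at 21 to 22 kb, with 16 and 1 call, 89.3% and 81.7%. All 18 cytosines of the first printed stretch of Cyp2c66 were lower in KI, from a mean of 80.04% to 57.7% at 30 to 50 reads in WT and 21 to 66 in KI. Of the 8 cytosines in the second stretch, 7 were lower, from a mean of 91.1% to 68.6%. The stretches share a run of 25 bases and match at 44 of 46 bases without a gap, and 16-base words around the called cytosines there occur a median of 487 to 1,530 times in mm9. The authors kept reads that mapped uniquely.

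**Figure D3:**
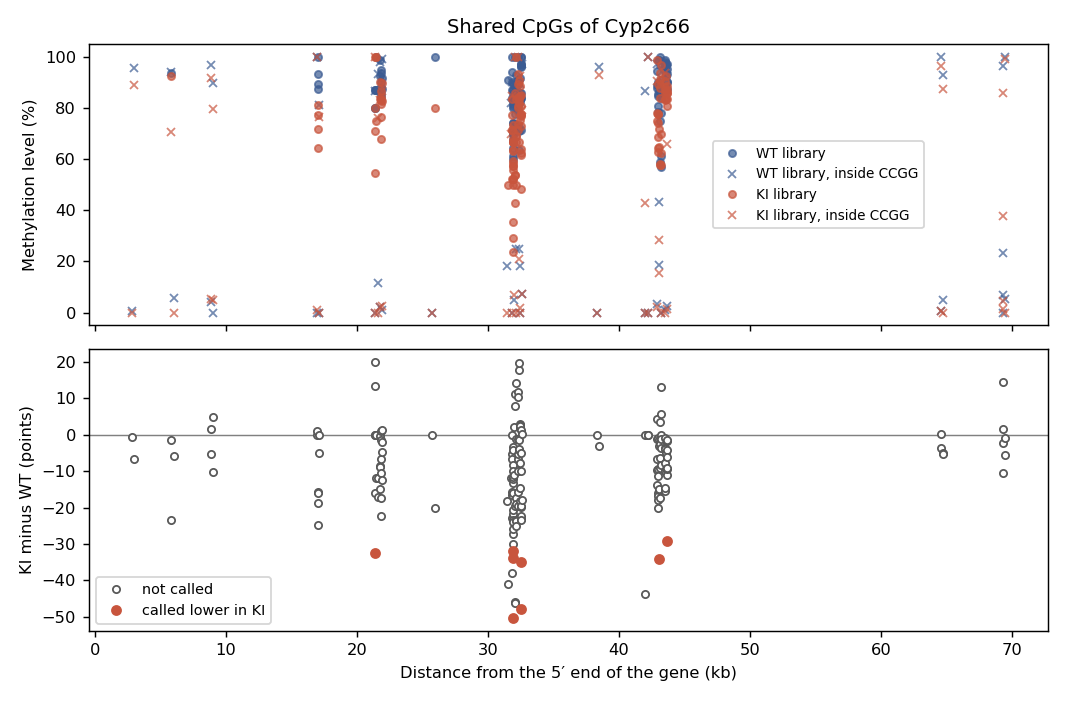
Methylation level (%) of the 179 shared CpGs of Cyp2c66 in the WT library (blue) and the KI library (red), with crosses inside CCGG sites (top), and the change of each CpG (KI minus WT, percentage points, bottom), by distance from the 5′ end of the gene (kb). The 8 CpGs called lower (filled) lie between 21 and 44 kb, and 5 of them at 31 to 33 kb.

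Other clusters of family 2 gave fewer CpGs. In the Cyp2j cluster on chromosome 4, whose enzymes epoxidise arachidonic acid, 3 of 5 tested genes were lower. Cyp2j8 (chr4:96111287-96174077, minus strand) went from 61.2% to 52.0% with 42 of 49 CpGs lower and 4 higher, and Cyp2j11 from 80.2% to 72.6% with 43 of 58 lower and 12 higher. Cyp2j5, an abundant epoxygenase of liver and kidney, went from 44.9% to 33.4% over 11 CpGs, of which 9 lie in CCGG sites and 8 were lower. Restricted to CpGs with at least 20 reads, its change was -4.49 points and it was no longer called. Cyp2j6 and Cyp2j13 were not called, with changes of 1.48 and -1.67 points. Of the Cyp2d cluster on chromosome 15, related to the human debrisoquine hydroxylase, 2 of 5 tested genes were lower.

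Cyp2d26 (chr15:82620537-82624675, minus strand) had the largest change of the members but little data. From 44.7% in WT it fell by 29.4 points to 15.2% in KI with a counting error of 7.55, over 5 CpGs read on 1 strand with 75 reads in WT and 40 in KI. All 5 were lower. The cytosine in its printed stretch lies in a CCGG site. It was methylated in 7 of 11 reads in WT, or 63.6% (Wilson 95% interval 35.4 to 84.8), and in 0 of 13 in KI (interval 0 to 22.8). Without CCGG sites 3 CpGs of Cyp2d26 were left, at 51.25% and 25.4%, too few to test the gene. Cyp2a22 (chr7:27716650-27724405, minus strand), the only gene of the Cyp2a subfamily with a shared CpG, was at 75.2% in WT and fell by 15.6 points in KI with a counting error of 3.99, over 22 CpGs with 201 and 162 reads. Its 4-gene subfamily includes Cyp2a5, the coumarin 7-hydroxylase of mouse liver, for which no CpG was shared. The Cyp2b genes, induced by phenobarbital through the receptor CAR, could hardly be tested. Cyp2b10 was at 74.9% in WT and 63.7% in KI over 5 CpGs, and Cyp2b9 at 66.7% and 64.8% over 10.

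Single-copy genes of family 2 were mixed. Cyp2e1, which oxidises ethanol and paracetamol in liver, was at 51.1% in WT and 49.7% in KI over 6 CpGs and was not called. Cyp2s1, an enzyme of epithelia whose main substrate is not settled, went from 52.3% to 47.0% over 46 CpGs and was called lower, but its change was -2.03 points with at least 10 reads per CpG and it was then not called. Cyp2w1 stood at 40.2% in both libraries over 18 CpGs, with a counting error of the difference of 0.538 points. Cyp2u1, a fatty acid hydroxylase, was at 40.6% and 40.5% over 85 CpGs.

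All 5 tested Cyp3a genes on chromosome 5 had a lower level in KI, and 3 of them were called. Cyp3a13 lies apart from the cluster that holds the other 4. These enzymes are the main steroid and drug oxidases of the liver, and family 3 averaged 70.8% in WT and 65.7% in KI over 120 CpGs. Cyp3a13 went from 46.4% to 38.4% over 12 CpGs and Cyp3a25 from 40.1% to 33.3% over 8. Cyp3a11 (chr5:146666002-146691540, minus strand), the most abundant of them in mouse liver, went from 62.7% to 53.6% over 8 CpGs with 7 lower and 1 higher. Its change rested in part on 2 CpGs with 5 to 9 reads in each library, at which 9 of 9 and 2 of 5 reads were methylated in WT and 7 of 8 and 0 of 5 in KI. With at least 10 reads per CpG the change was -3.28 points and Cyp3a11 was not called. The best covered gene of the family, Cyp3a44, with 14,124 reads in WT and 10,563 in KI, was at 78.6% and 74.1% over 78 CpGs and passed the adjusted p but not 5 points.

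Family 4, the fatty acid omega-hydroxylases, averaged 46.8% in WT and 42.8% in KI over 439 CpGs. Of its 14 tested genes 7 were lower, against 11.2% of all genes. In the Cyp4a cluster, whose genes are induced through PPARα, the 3 tested genes were all lower. Cyp4a12a went from 66.6% to 61.5%, Cyp4a12b from 68.2% to 60.7% and Cyp4a32 from 73.1% to 65.5%. With at least 10 reads per CpG Cyp4a12a changed by -4.64 points and was not called. Cyp4a10, the classical PPARα target, had 3 CpGs and was at 64.9% and 57.9%, and Cyp4a14 had none. In the Cyp4f subfamily, which inactivates leukotriene B4, 4 of 8 genes were lower. Cyp4f18 went from 48.6% to 33.2% with 9 of 10 CpGs lower and 1 higher, and all 10 also lie in the overlapping gene Zfp961 or within 2 kb upstream of it. Cyp4f40 went from 47.9% to 40.7% over 41 CpGs, with 34 lower and 7 higher. Cyp4f17 went from 56.6% to 47.7% and Cyp4f39 from 54.5% to 48.0%, but with at least 10 reads per CpG their changes were -3.57 and -3.41 points and neither was called. Cyp4f15 had the largest difference upwards of the 69 genes, 51.5% in WT and 56.7% in KI with a counting error of 4.04 points, and was not called. With at least 10 reads per CpG its difference turned to -3.68 points. Cyp4v3, of which the human counterpart is mutated in Bietti crystalline dystrophy, was at 13.0% and 13.3% over 76 CpGs.

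None of the 5 tested genes of bile acid and cholesterol metabolism was called, against 11.2% of all genes called lower. Each of the 5 had a lower level in KI, as had 13,575 of all 17,622 genes. Genes this few cannot set the group apart from all genes. Cyp7a1, the rate-limiting enzyme of bile acid synthesis, was at 43.2% in WT and 40.3% in KI over 10 CpGs, a change of -2.92 points with a counting error of 2.61. Cyp7b1, the oxysterol 7-alpha-hydroxylase, was at 65.2% and 61.4% over 40 CpGs, and Cyp39a1, the 24-hydroxycholesterol 7-alpha-hydroxylase, at 58.2% and 54.0% over 51. Cyp27a1, the mitochondrial sterol 27-hydroxylase, was at 39.4% and 36.8% over 53. Cyp46a1, the cholesterol 24-hydroxylase of brain, was at 22.2% and 21.1% over 188 CpGs. With at least 20 reads per CpG Cyp7a1 changed by -5.06 points, Cyp7b1 by -0.22, Cyp39a1 by -0.27, Cyp27a1 by 1.34 and Cyp46a1 by -1.33. For Cyp8b1, the sterol 12-alpha-hydroxylase, no CpG was shared, although 55 of its CpGs were listed in at least 1 library.

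Genes of steroid hormone synthesis act mainly in adrenal gland and gonads. In this liver DNA their mean WT level lay between those of families 2 and 3, at 62.6% and 70.8%. The 149 CpGs of the steroid genes averaged 65.5% in WT and 60.4% in KI. Of the 5 tested steroid genes 2 were lower, against 11.2% of all genes. Cyp19a1 (chr9:54013744-54115917, minus strand), the aromatase that makes oestrogens, was at 72.1% in WT and fell by 6.76 points in KI with a counting error of 1.20, with 48 of 69 CpGs lower and 16 higher. With at least 10 reads per CpG its change was -4.90 points, just under the minimum. Cyp11a1, the side-chain cleavage enzyme that turns cholesterol into pregnenolone, was at 61.0% and 55.9% over 28 CpGs, and its change of -5.07 points became -3.42 without CCGG sites. Cyp11b1, Cyp17a1 and Cyp21a1 were not called, with changes of -4.17, -2.17 and -2.85 points. Cyp21a1 passed without CCGG sites, at -5.11 points, where it has 6 CpGs. For Cyp11b2, the aldosterone synthase, no CpG was shared.

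The 6 genes of retinoic acid and vitamin D metabolism held 878 CpGs at a low mean, 25.7% in WT and 23.7% in KI, and 1 of them was lower, Cyp2r1. Levels within family 26, which breaks down retinoic acid, were far apart. Cyp26c1 and Cyp26a1 are neighbours on chromosome 19 with 4.41 kb between them, in the same orientation. Cyp26c1 was at 73.6% in WT and 72.2% in KI over 188 CpGs, and Cyp26a1 at 14.7% and 12.6% over 201. Cyp26b1, on chromosome 6, was at 14.3% and 12.1% over 298 CpGs, the most of any member. None of the 3 was called. Outside its promoter Cyp26a1 was at 29.7% and 24.7% over 90 CpGs, with 56 lower and 25 higher, and with at least 20 reads per CpG it was called lower at -5.33 points. Of the vitamin D genes, Cyp24a1, the 24-hydroxylase that inactivates the hormone, was at 8.59% and 6.83% over 127 CpGs, 105 of which are also counted to the gene Pfdn4 on the opposite strand. Cyp27b1, the 1-alpha-hydroxylase of the kidney that activates the hormone, was at 4.53% and 3.91% over 41. It changed by -4.43 points with at least 10 reads per CpG and was called lower at -7.57 points with at least 20. That last value is also the value of its promoter alone at 20 reads. Without CCGG sites the gene changed by 0.16 points. Cyp20a1, whose substrate is unknown, was at 23.6% and 22.1% over 93 CpGs.

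Promoters, taken as 1 kb on each side of the 5′ end, could be tested for 25 Cyp genes. Of these, 4 were lower in KI and 0 were higher, against 4.35% lower and 0.425% higher of the 13,867 promoters tested in the genome. Among promoters over 50% in WT, 2 of 7 Cyp promoters were lower, against 27.7% of 1,450. Cyp promoters were split between nearly unmethylated and highly methylated. The WT level was under 10% in 16 and over 50% in 7, that is 28.0%, against 10.5% of all promoters over 50%. Few Cyp promoters had a high ratio of observed to expected CpGs over the whole promoter window, and CpG islands were not called. The ratio of observed to expected CpGs was at least 0.6 in 6 of the 96 (6.25%), Cyp46a1, Cyp2r1, Cyp26a1, Cyp2u1 and Cyp24a1 among them, against 33.8% of all promoters. The 7 highly methylated ones were those of Cyp26c1, Cyp2a22, Cyp4f40, Cyp2c55, Cyp21a1, Cyp2w1 and Cyp2d11. Cyp26c1 combined a high promoter level, 76.8% in WT and 76.5% in KI over 76 CpGs, with an observed to expected ratio of 0.401.

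**Figure D4:**
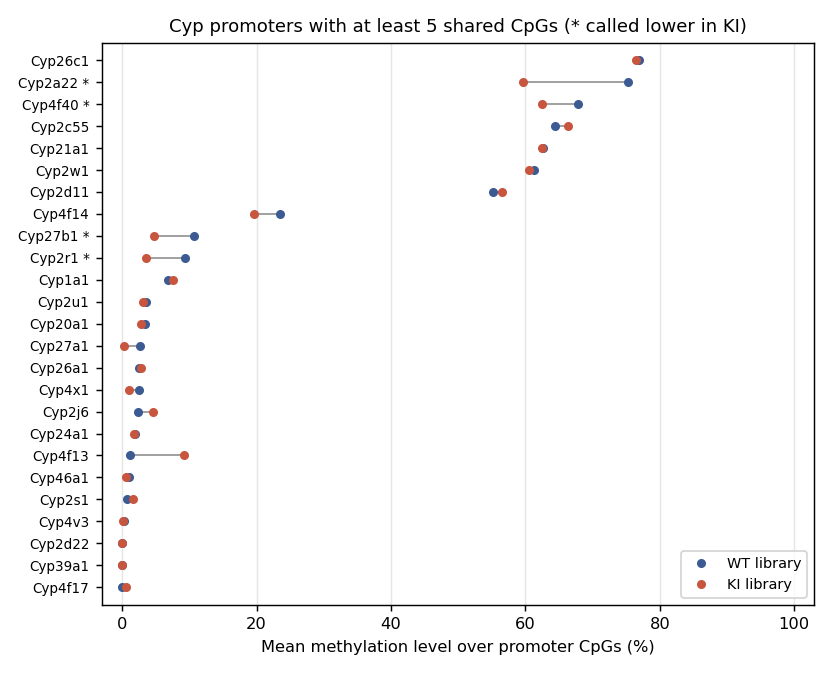
Mean methylation level (%) of the 25 Cyp promoters with at least 5 shared CpGs in the WT library (blue) and the KI library (red), sorted by WT level, with a star at the 4 called lower in KI. The levels fall into 7 promoters over 50% in WT, 16 under 10% and 2 between.

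The 4 promoters that were lower in KI differed in kind. Cyp2r1 (chr7:121693680-121706486, minus strand), the vitamin D 25-hydroxylase of the liver, has a CpG-rich promoter, with 71 CpGs and a ratio of 0.638, and was measured almost wholly in 1 fragment, printed above, that lies just upstream of the 5′ end. Its level was 9.41% in WT and 3.54% in KI over 23 cytosines, a change of -5.87 points with a counting error of 1.04, and 20 were lower, 1 was higher and 2 were equal. The loss was spread over the fragment. At its most upstream cytosine, 23 of 110 reads were methylated in WT and 8 of 86 in KI, and at that at position -213 from the 5′ end, 20 of 110 and 8 of 86. None of the 23 passed alone. Leaving out CCGG sites kept the call, from 10.1% to 3.93%.

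The promoter of Cyp27b1 went from 10.7% to 4.78% over 9 cytosines, with 5 lower and 1 higher. Outside CCGG sites it had 2 cytosines, too few for a test. Its largest difference was at the printed CCGG site near the start of the gene, where 33 of 68 reads were methylated in WT and 16 of 71 in KI, that is 48.5% and 22.5% (adjusted p = 0.0501, Fisher's exact test). The promoter of Cyp4f40 went from 67.8% to 62.5% over the 8 cytosines of the printed fragment. The difference lay in 1 CpG, 214 bases into the gene, which was at 90.5% and 72.5% on one strand and 82.1% and 61.7% on the other, while the other 6 cytosines differed by less than 6 points. With the deeper library thinned to equal coverage the promoter changed by -4.86 points and was not called. The promoter of Cyp2a22 went from 75.2% to 59.7%, and its printed stretch in an exon from 70.8% to 47.2% with 8 of 10 cytosines lower and 1 higher, at 7 to 14 reads in WT and 6 to 8 in KI. The 22 cytosines of this promoter are all those measured in Cyp2a22, and the call ended without CCGG sites, at -14.6 points, and with reads summed over the promoter.

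Of the 16 genes with a promoter under 10% in WT, 10 were over 50% outside the promoter, where 6 had a lower level in KI and 4 a higher one. Cyp4f17 was at 0% in WT and 0.571% in KI over 7 promoter CpGs, and at 67.3% and 56.6% over 37 CpGs elsewhere. Cyp2s1 was at 0.758% and 1.61% in the promoter and at 70.5% and 63.0% elsewhere, and Cyp20a1 at 3.39% and 2.81% against 78.5% and 74.6%. Cyp39a1 was at 0% in both libraries over 8 promoter CpGs, all of which are also counted to Slc25a27, and at 69.1% and 64.0% elsewhere. At its best covered promoter CpG, 0 of 10 WT reads and 0 of 8 KI reads allow a level of up to about 30% and 37.5%, and at that of Cyp4f17 0 of 136 WT reads up to 2.21%. These limits put 3 reads in place of a count of 0, which is rough at 8 or 10 reads. In Cyp27a1 the promoter was at 2.69% and 0.298% and the rest of the gene at 69.7% and 67.0%. These are changes of -2.39 and -2.66 points from WT levels far apart, and neither the promoter nor the gene was called. Outside the promoter Cyp4v3 was at 61.2% and 62.8%, Cyp2d22 at 68.0% and 70.1%, Cyp2u1 at 70.6% and 70.8% and Cyp2j6 at 73.7% and 74.1%, and none of these genes was called. Cyp27b1 was the opposite case, with 2.80% and 3.67% over 32 CpGs outside its promoter.

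Over all Cyp genes the level and the change differed with the distance from the 5′ end. Between 1 and 2 kb upstream, 73 CpGs of 10 genes changed by -4.10 points, from 28.4% to 24.3%. In the 1 kb upstream of the 5′ end, 317 CpGs averaged 11.3% in WT and 11.0% in KI, and in the first 1 kb of the gene 425 CpGs averaged 19.3% and 17.9%. Between 5 and 20 kb into the gene, 958 CpGs averaged 52.4% and 49.1%. Beyond 20 kb from the 5′ end, 830 CpGs of 25 genes averaged 69.9% and 63.5%, a change of -6.38 points, which was -7.84 points without CCGG sites. The CpGs of all protein-coding genes at that distance changed by -3.02 points from 61.7%. Introns of Cyp genes averaged 54.2% in WT and 50.1% in KI and exons 38.4% and 35.2%.

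**Figure D5:**
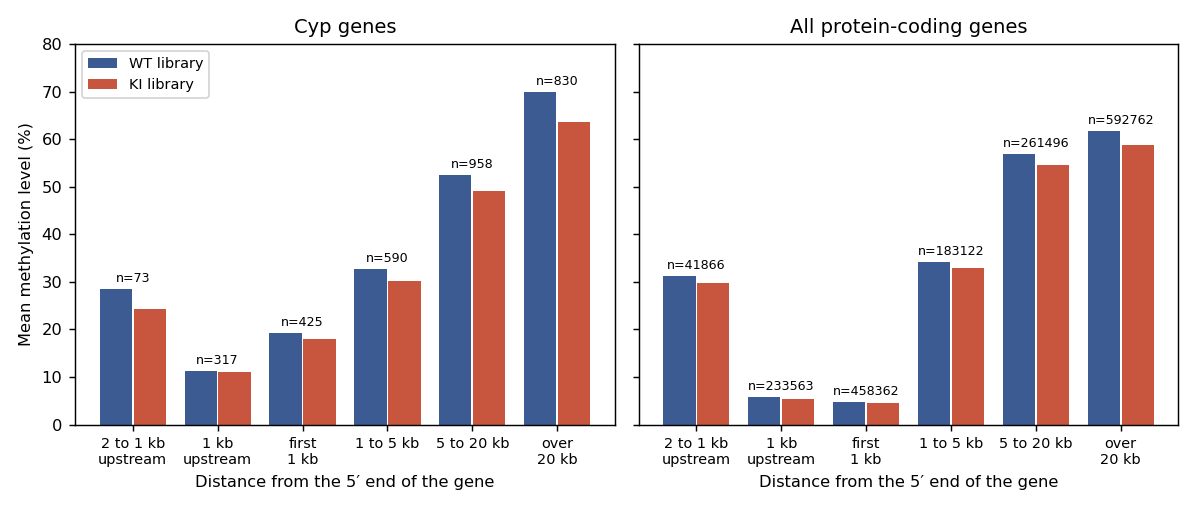
Mean methylation level (%) of shared CpGs by distance from the 5′ end of the gene, in Cyp genes (left) and all protein-coding genes (right), for the WT library (blue) and the KI library (red), with the number of CpGs above each pair of bars. Beyond 20 kb the Cyp bars are at 69.9% and 63.5%, and in the 1 kb upstream at 11.3% and 11.0%.

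Genes in the 8 subfamilies with at least 4 members (Cyp2a, 2b, 2c, 2d, 2j, 3a, 4a and 4f) were set beside the remaining ones. Their 1,255 CpGs went from 65.0% to 59.3%, a change of -5.62 points or -8.65% of the WT level. Of their 41 tested genes 19 were called lower, against 11.2% of all genes and 24.9% of those between 60% and 100%. The 1,938 CpGs of the other Cyp genes went from 30.9% to 28.9%, a change of -2.03 points or -6.57% of the WT level. Of these genes 5 of 28 were called. The sets differ in level, and the difference between them was not tested. These subfamilies are also poor in what RRBS can read, with 4.52 CCGG sites per 10 kb against 8.30 in the other Cyp genes and with 15 of the 18 genes that had no shared CpG. These 15 are Cyp2a4, Cyp2a5, Cyp2a12, Cyp2b19, Cyp2c37, Cyp2d12, Cyp2d37-ps, Cyp2d40, Cyp2j12, Cyp3a41a, Cyp3a41b, Cyp3a57, Cyp3a59, Cyp4a14 and Cyp4a31, and the others are Cyp2g1, Cyp8b1 and Cyp11b2. The 9 genes with 1 to 4 shared CpGs, not tested as genes, differed by -19.4 points in Cyp2b23 to 15.7 points in Cyp2t4, the latter at a single CpG with 14 reads in WT and 5 in KI. The change also differed between classes of copies of the surrounding sequence. At CpGs where the 16-base words in the surrounding 51 bases occur a median of fewer than 5 times in mm9, the 2,216 Cyp CpGs went from 33.7% to 31.3%, and at those with 100 copies or more the 701 CpGs went from 70.9% to 64.9%. At 5 to 99 copies, 276 CpGs went from 61.9% to 56.6%. Taking only CpGs at a mean level over 70%, 607 CpGs at fewer than 5 copies changed by -3.19 points. The change was -5.75 points over 151 such CpGs at 5 to 99 copies and -5.86 points over 479 at 100 or more. Of the 179 CpGs of Cyp2c66, 11 were at fewer than 5 copies, and these changed by -6.03 points, against -9.73 for the gene. In Cyp2j8 it was 6 of 49, at -3.43 against -9.23 points, and in Cyp2c39 12 of 57, at 1.03 against -4.77. In Cyp2j11 it was 3 of 58, at -10.0 against -7.59 points. The part of the copies in the results of single genes was not tested. The copy classes were chosen with the data known.

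Single CpGs were called by Fisher's exact test with adjustment over all shared CpGs. A call needed a difference of more than 25 points beside an adjusted p under 0.05. In Cyp genes 20 CpGs were lower in KI and 1 was higher. Over the genome 1.09% of shared CpGs were lower and 0.0474% were higher, and the Cyp share of lower CpGs was 0.626%. Within protein-coding genes the share of lower CpGs was 0.456%, so that the Cyp share lay below that of all shared CpGs and above that of genes. The 20 lower CpGs lay in 12 genes, 16 of them in introns, 3 in exons and 1 upstream of a gene. At a CpG pair with both strands shared, the opposite strand of a called CpG was lower in 14 of 17 cases, with a median of -15.0 points. Complete switches were rare. Of the 1,305 Cyp CpGs over 70% in WT, 2 were under 20% in KI, and 1 CpG went from under 20% to over 70%. No Cyp CpG had at least 20 reads in one library and none in the other.

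The largest difference was in an exon of Cyp2b23, where the printed cytosine was methylated in 14 of 14 reads in WT and in 4 of 14 in KI (100% with a Wilson 95% interval of 78.5 to 100, and 28.6% with 11.7 to 54.6; adjusted p = 0.00899, Fisher's exact test). Cyp2b23 had 3 shared CpGs and was not tested as a gene. In Cyp2c38, a cytosine in an intron was at 91.7% in WT and 53.6% in KI, with 36 and 28 reads. In Cyp2c66, a cytosine 31,881 bases into the gene was at 74.2% and 23.8%, one at 32,563 bases at 96.2% and 48.1%, and one at 43,044 bases, with 93 and 94 reads, at 98.9% and 64.9% (adjusted p = 7.77e-08, Fisher's exact test). The called cytosine with the most reads, in an intron of Cyp2j8, had 362 reads in WT and 257 in KI and was at 65.5% (60.4 to 70.2) and 40.5% (34.6 to 46.6), and its opposite strand differed by -22.1 points. In Cyp3a13, a cytosine in an exon was at 43.8% and 17.9%, and its opposite strand differed by -0.446 points.

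Both called CpGs of family 26 lay in the stretch of chromosome 19 that holds Cyp26c1 and Cyp26a1. The printed cytosine upstream of Cyp26a1, in a CCGG site, was at 62.8% (47.9 to 75.6) in WT and 25.5% (15.8 to 38.3) in KI, with 43 and 55 reads. Its opposite strand differed by 0 points. The cytosine in an intron of Cyp26c1 was the only one higher in KI, at 70.4% (57.2 to 80.9) in WT and 95.5% (84.9 to 98.7) in KI, with 54 and 44 reads (adjusted p = 0.0473, Fisher's exact test). Its opposite strand was higher by 20 points, while the other CpG in the printed stretch was lower on both strands.

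Partners of the P450 enzymes were counted as a list of 12 genes. It holds the electron donors Por, Cyb5, Cyb5b, Cyb5r3, Fdx1, Fdx1l and Fdxr, the haem-binding Pgrmc1, the haem synthesis enzyme Alas1, and the P450 enzymes Cyp51, Tbxas1 and Ptgis, which fall outside the naming rule. Of the 11 with at least 5 shared CpGs, 0 were called lower and 0 higher, against 11.2% lower of all genes, and their median change was -0.41 points against -0.91. Por, the reductase that feeds electrons to all microsomal P450 enzymes, was at 39.2% in WT and 38.8% in KI over 194 CpGs. The largest differences of the list were those of Ptgis, at 52.9% and 50.5%, Cyb5r3, at 15.2% and 12.9%, and Tbxas1, at 45.6% and 43.4%. All 10 promoters measured were under 10% in WT, and none was called.

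The tissue label was looked at through promoters of marker genes, as values only. Of 10 hepatocyte genes, 5 promoters were measured, at 2.78% to 56.7% in WT, and 3 of them were lower in KI (Apob, Fgb and Hnf4a), against 4.35% of all promoters. Promoters of 3 of 5 blood and Kupffer cell genes were at 65.3% to 74.8% in WT and 48.5% to 72.2% in KI, and that of Cd3e was lower. Promoters of 2 of 3 endothelial genes were at 66.0% and 76.7% in WT and at 63.6% and 83.3% in KI. The 4 stellate cell promoters were at 0.552% to 34.8% in WT and at 1.30% to 36.3% in KI, and the 2 measured cholangiocyte promoters were under 1% in both libraries.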

How the data were processed

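Liver DNA of 3 WT and 3 KI males, pooled by genotype, was analysed by RRBS in 1 library per genotype. Bismark (version 0.12.20 per the submitters' processing notes) was used by the authors to align reads to mm9, and only unique alignments were kept. The files as deposited give, for every CpG cytosine on either strand, the count of reads (coverage) and the percent read as methylated. How reads were trimmed and duplicates treated is not given in the sources used here. Methylated reads were recovered as whole numbers at 100% of the CpGs, and coverage summed to 192,144,002 in WT and 173,109,895 in KI.

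The libraries were joined by position at CpGs covered 5 times or more in each. Strand, CCGG sites and the printed sequences were read from the mm9 genome, and genes from its GENCODE annotation. Levels are means over CpGs with equal weight, and a change is the KI level less the WT level, in points. Single CpGs were tested by a two-sided Fisher's exact test. Genes and promoters with at least 5 shared CpGs were tested by the Cochran-Mantel-Haenszel procedure, each CpG forming a stratum, and p-values were adjusted by the Benjamini-Hochberg method over every shared CpG, gene or promoter tested. The counting error of a mean is the binomial error of its reads, and intervals of single CpGs are Wilson intervals. The procedures were tested on simulated data.

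Named are the 8 called genes with the largest loss, every called promoter, the 10 called CpGs with the largest loss, those called higher, the 4 members with the most reads, and genes of known role, with further members added after their values were seen. The members, lists and tests were chosen with earlier results of these data known. Alternatives changed the coverage minimum, CCGG sites, strands, depth, the test, the minimum difference, the minimum number of CpGs and the gene or promoter window. Non-CpG methylation was not analysed here. The work was done in Python 3.11.15 (scipy 1.17.1, numba 0.67.0, numpy 2.4.6, matplotlib 3.10.9 and pandas 2.3.3).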

Additional observations from a re-analysis of the deposited data

How the results depend on the processing

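The change of the mean over Cyp CpGs was -3.79 points without CCGG sites and -3.77 points in gene bodies alone, against -3.44. The count of CpGs lower in KI went from 20 to 9 with strands summed, 12 with reads thinned to equal coverage and 69 with no minimum difference. That of higher CpGs went from 1 to 0, 0 and 2. These counts are out of 1,879 Cyp CpGs with strands summed and 3,193 otherwise. Over the genome, the shares of lower CpGs in the 3 settings were 1.22%, 0.882% and 2.87%, and those of higher CpGs 0.0563%, 0.0315% and 0.115%. With at least 10 reads per CpG, genes lower in KI went from 24 to 15 of 62, against 11.3% of all genes. With no minimum difference the count was 44 of 69, against 45.2%, and at 10 points 5 of 69, against 2.54%. It was 0 when each gene was given the reads of 1 average CpG, a setting in which 1 of all 17,622 genes was called. The count of lower promoters went from 4 to 1 of 17 without CCGG sites, against 3.68% of all promoters. There, 2 of the 4 had too few CpGs and 1 lost its call. At 10 points the count was 1 of 25, against 1.56%. With at least 10 CpGs it was 2 of 14, against 3.58%, and the other 2 had too few CpGs. With averaged reads it was 0 of 25, and 0 of all promoters. No called gene or promoter changed direction, but 12 genes that were not called did, with 23 values in all. With at least 10 reads these were Cyp4f15 at -3.68, Cyp4v3 at -0.46 and Cyp1a1 at -0.18 points. With at least 20 they were Cyp27a1 at 1.34, Cyp2d11 at -0.61, Cyp4f15 at -3.68, Cyp4f13 at -2.47, Cyp4v3 at -0.31 and Cyp1a1 at -0.80. Without CCGG sites they were Cyp27b1 at 0.16, Cyp4f13 at -1.15, Cyp2u1 at 0.85 and Cyp2w1 at 0.54. With strands summed they were Cyp2d11 at -1.04, Cyp2u1 at 0.78, Cyp4b1 at 0.42 and Cyp2w1 at 0.39, and with thinned reads Cyp2c40 at 0.58, Cyp2u1 at 0.21 and Cyp2e1 at 0.96. In gene bodies alone they were Cyp2d11 at -1.16, Cyp2w1 at 0.50 and Cyp1a1 at -1.50. The cause was not tested. Without CCGG sites, 17 of 51 Cyp genes were called lower, against 13.4% of all genes, and of the 24 lower genes 14 were still called, 9 had too few CpGs and 1 was lost. No gene or promoter was called higher under any alternative. No paired analysis was possible because there is 1 library per genotype, and for the same reason no library could be left out. Depth limits genes with few CpGs and few reads, such as Cyp2d26, Cyp2a22 and Cyp2c54.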
